A study of Mus musculus with 4 samples.

Results

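The collagen chain genes were examined in mouse embryonic fibroblasts (MEFs) with or without FAN, untreated or treated with tumour necrosis factor (TNF). The 36 genes were chosen by symbol, as those collagen genes named by a probe set that names 1 gene, out of 18193 genes in all, and 69 probe sets measure them. They were grouped by the assembly their protein forms: 10 fibrillar chains, 6 type IV chains of basement membranes, 3 type VI chains and 17 others. The cells were MEFs of C57BL/6 embryos, FAN +/+ or FAN -/-. The Nsmaf gene encodes FAN, which binds the TNF receptor as an adaptor. Untreated cells of each genotype spent 24 h without serum. Treated cells spent 8 h without serum and then 16 h with 50 ng/ml TNF. Each of the 4 conditions was 1 Affymetrix whole-genome array of total RNA. The sources used here do not give the number of embryos or cell preparations behind a genotype, so genotype and cell preparation cannot be told apart. The arrays were assigned by title. The genotype entry of the labels goes against the title for 2 of the 4 samples, calling the TNF-treated FAN +/+ cells knockout and the untreated FAN -/- cells wild type.

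Collagens are trimeric proteins whose chains wind into a triple helix through a repeated glycine-containing motif. Fibrillar collagens such as types I, III and V build the tensile fibrils of connective tissue, and fibroblasts are their main source. Type IV collagen forms the sheet-like network of basement membranes, and type VI collagen forms beaded microfibrils around cells. Chains are hydroxylated and folded in the endoplasmic reticulum, trimmed by propeptidases after secretion, and crosslinked by lysyl oxidases.

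Values are probe set signals, obtained as 2 to the power of the deposited log2 value, and each gene is read from its probe set of highest mean. Signals below a log2 value of 6.27, the median of all values, were raised to this floor for differences, so that a difference with the floor on one side is a bound. Each condition being 1 array, differences of array from array stand without a replicate check. "Higher" and "lower" therefore describe these arrays, and at least 2-fold means a log2 difference of at least 1. The words "rose", "fell" and "called" mark genes that passed limma, fitted with additive terms for genotype and TNF to 11817 genes (Benjamini-Hochberg adjusted p under 0.05), in which each level of a factor has 2 arrays and 1 residual degree of freedom remains. Array medians lay between log2 6.21 and 6.3, and 49.2% to 50.5% of probe sets lay above the floor. The targeted gene went with the titles. Nsmaf signals were 496 (untreated) and 376 (TNF) in FAN +/+ cells against 240 and 179 in FAN -/- cells. The sources used here do not say which part of the gene is missing or where the probe set lies. Of 7 fibroblast markers listed, 6 were analysed and all 6 lay above the floor in untreated cells of both genotypes. Some markers of other cell types were at the floor on all arrays, among them Ptprc and Cd68 (leukocytes), Pecam1 and Cdh5 (endothelium), Cdh1, Krt14 and Krt18 (epithelium), Acan and Matn1 (cartilage), and Myod1 and Myog (skeletal muscle). Other markers of these lists lay above it, at levels that differed between arrays. Of 6 epithelial markers 3 did (Epcam, Krt5 and Krt8, summed list signal 813 to 906 in FAN +/+ and 860 to 875 in FAN -/- cells), and of 5 endothelial markers 2 did (Kdr and Tek, summed 351 to 405 and 360 to 385). Of 5 leukocyte markers 2 did, Lyz2 and Csf1r, neither called, with a summed list signal of 453 and 685 in FAN +/+ cells and 1173 and 652 in FAN -/- cells. Of 4 skeletal muscle markers 2 did, with summed signals of 690 and 374 against 977 and 673, and Des rose (limma 0.76, adjusted p = 0.034). All 4 smooth muscle markers lay above the floor, Acta2 brightest with 12880 and 13490 against 14750 and 14870. Of 5 bone markers listed, 3 were analysed and 2 lay above it, with a summed list signal of 239 and 248 against 233 and 255. Sox10, a Schwann and neural crest marker, had 133 and 151 against 172 and 166. The part of these markers in the collagen differences was not tested.

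Of the 36 collagen genes, 30 lay above the floor on at least 1 array and 27 on all 4. All 10 fibrillar genes and all 3 type VI genes were above it on at least 1 array. The 6 genes below it everywhere were Col4a3 and Col4a4, which encode the type IV chains of kidney glomeruli, Col9a2, a cartilage chain, Col13a1 and Col17a1, transmembrane collagens, and Col15a1, a basement membrane zone collagen. Their signals ranged from 10.7 (Col17a1) to 68.8 (Col15a1). The counts below are over the genes above the floor on at least 1 of the 2 arrays compared, or on 2 or more arrays for limma. Passing on 1 side only favours a gene that is high there, and the counts keep this bias. Col11a2 and Col19a1 lay above the floor only on the 2 FAN -/- arrays, and both are counted between genotypes.

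**Figure D1:**
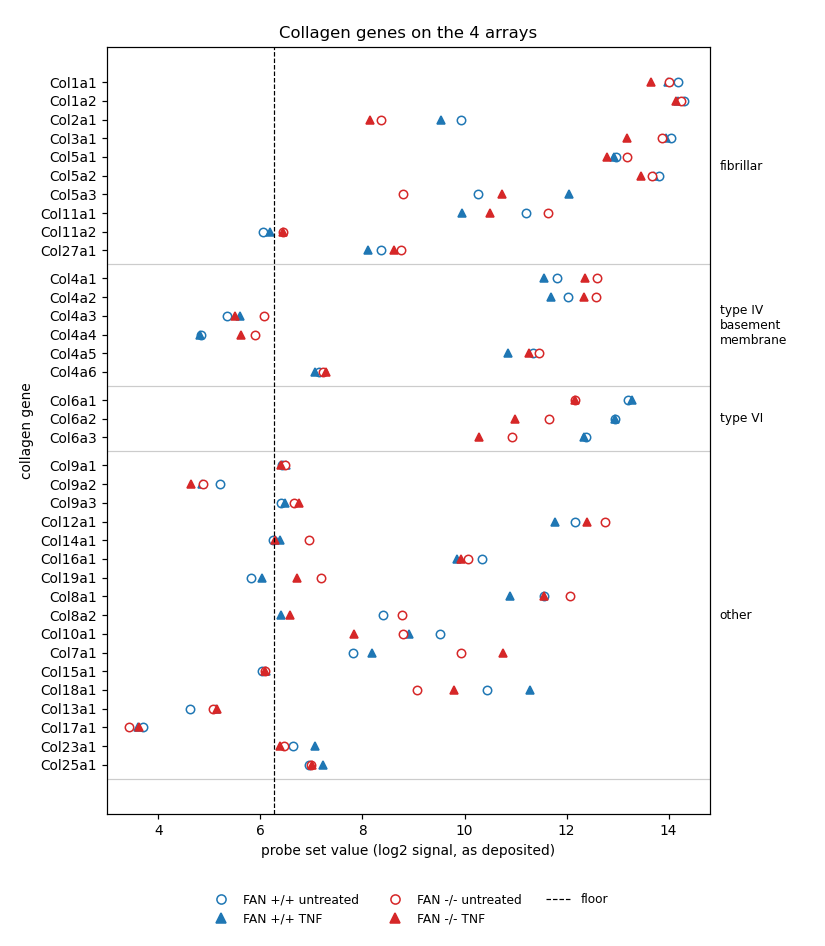
Deposited log2 value (horizontal axis) of the probe set of highest mean of each of the 36 collagen genes (vertical axis, by class) on the 4 arrays; blue is FAN +/+, red FAN -/-, open circles are untreated, filled triangles TNF-treated, and the dashed line is the floor at 6.27. The 3 type VI genes show the red symbols left of the blue ones, and Col7a1 the reverse; 6 genes lie below the floor on every array.

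The type VI genes showed the clearest class-wide difference between genotypes. All 3 were at least 2-fold lower in FAN -/- cells both without and with TNF, and all 3 were called lower by limma. Type VI collagen is assembled from these chains as a heterotrimer, in which the long chain encoded by Col6a3 carries many von Willebrand factor A domains. The upstream sequences of these genes are shown because the 3 moved together, with those of Col7a1 and Col5a3, which had the largest rises by genotype and by TNF among the collagens called. Each line gives the 250 bases before the annotated start (RefSeq, GRCm38.p6), 5' to 3' on the gene's strand, with matches on either strand to the TATA box (TATAAA), the CCAAT box, the GC box (GGGCGG), the AP-1 site (TGANTCA) or the NF-kB consensus in capitals. For Col6a2, which has 2 annotated starts, the outer one was taken.
Col6a1 (chr10:76726045-76726294, minus strand): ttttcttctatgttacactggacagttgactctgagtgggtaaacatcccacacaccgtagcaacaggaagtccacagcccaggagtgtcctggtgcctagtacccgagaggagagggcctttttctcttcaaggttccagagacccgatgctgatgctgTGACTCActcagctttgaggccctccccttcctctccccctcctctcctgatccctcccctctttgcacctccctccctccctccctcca
Col6a2 (chr10:76623631-76623880, minus strand): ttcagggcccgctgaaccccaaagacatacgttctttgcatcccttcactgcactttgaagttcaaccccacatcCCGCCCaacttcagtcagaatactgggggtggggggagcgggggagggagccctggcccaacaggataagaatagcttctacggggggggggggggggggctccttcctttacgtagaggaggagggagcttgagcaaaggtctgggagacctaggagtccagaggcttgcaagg
Col6a3 (chr1:90843972-90844221, minus strand): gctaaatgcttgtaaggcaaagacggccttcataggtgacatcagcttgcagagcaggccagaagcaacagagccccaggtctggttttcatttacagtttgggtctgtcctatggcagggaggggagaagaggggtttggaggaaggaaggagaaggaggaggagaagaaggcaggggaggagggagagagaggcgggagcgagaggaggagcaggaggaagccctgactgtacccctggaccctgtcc
Col7a1 (chr9:108953336-108953585, plus strand): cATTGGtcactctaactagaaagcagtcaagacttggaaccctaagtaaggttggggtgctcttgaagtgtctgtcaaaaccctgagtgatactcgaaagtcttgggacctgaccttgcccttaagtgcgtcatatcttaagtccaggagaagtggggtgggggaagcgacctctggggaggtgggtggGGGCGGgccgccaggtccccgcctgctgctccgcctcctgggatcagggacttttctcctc
Col5a3 (chr9:20815068-20815317, minus strand): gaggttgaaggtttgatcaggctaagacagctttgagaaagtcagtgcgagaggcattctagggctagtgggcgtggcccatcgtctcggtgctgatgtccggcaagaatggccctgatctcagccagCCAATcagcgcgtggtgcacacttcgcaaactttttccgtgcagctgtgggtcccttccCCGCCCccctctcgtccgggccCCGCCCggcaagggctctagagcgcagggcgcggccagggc

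Col6a1 had signals of 9403 (untreated) and 9932 (TNF) in FAN +/+ cells, and 4604 and 4594 in FAN -/- cells. Both FAN -/- values lay below both FAN +/+ values and TNF hardly moved either. Its FAN -/- level was below the FAN +/+ level by 2.04-fold in untreated and 2.16-fold in treated cells, a limma genotype difference of -1.07 ± 0.07 log2 (SE, adjusted p = 0.0096). Col6a2, its neighbour on chromosome 10, had signals of 7871 and 7838 in FAN +/+ cells and 3239 and 2034 in FAN -/- cells. The gap was 2.43-fold without TNF and widened to 3.85-fold with TNF, where the FAN -/- signal was lower than in untreated FAN -/- cells (limma -1.61 ± 0.17, adjusted p = 0.019). Col6a3, on chromosome 1, followed the same course, with 5320 and 5225 in FAN +/+ cells against 1965 and 1250 in FAN -/- cells. The FAN -/- level was 2.71-fold lower in untreated and 4.18-fold lower in treated cells (limma -1.75 ± 0.17, adjusted p = 0.016). A second Col6a2 probe set gave 2.77-fold and 4.03-fold lower values. The class median was -1.28 log2 without TNF and -1.95 with TNF, where the median of all genes above the floor was -0.04 and 0.02.

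**Figure D2:**
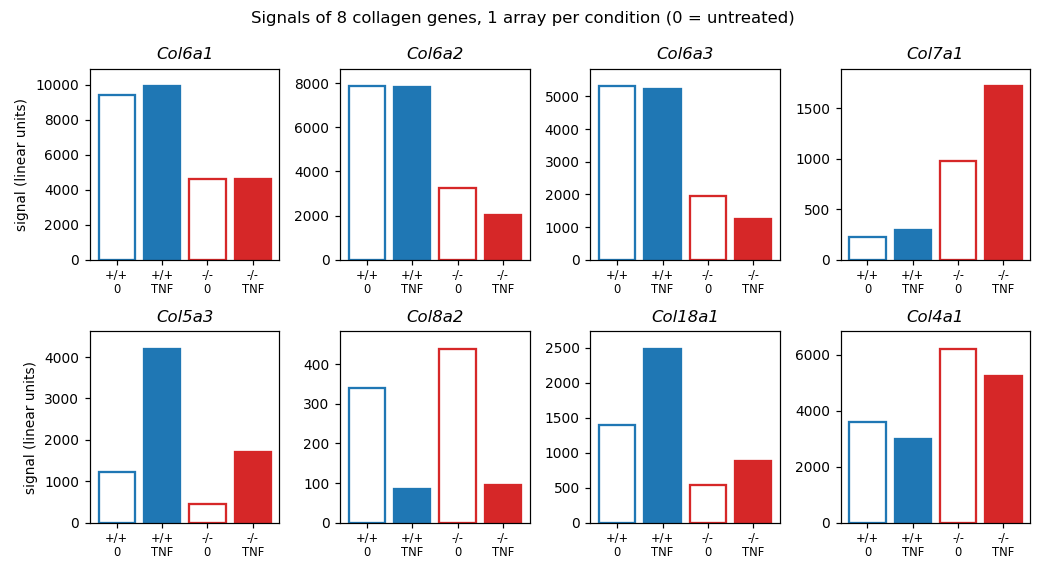
Signals (vertical axes, linear units starting at 0) of 8 collagen genes on the 4 arrays, 1 bar per array with no error since each condition is 1 array; blue is FAN +/+, red FAN -/-, open bars are untreated (0) and filled bars TNF-treated. Col6a1, Col6a2 and Col6a3 are lower in both red bars, Col7a1 and Col4a1 are higher in both, Col5a3 and Col18a1 are higher with TNF in each genotype, and Col8a2 is lower with TNF in each.

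The fibrillar genes did not shift as a class. Their median genotype difference was -0.10 log2 without TNF and -0.20 with TNF over 10 genes, and 2 of the 10 fell with loss of FAN. Col2a1, the major chain of cartilage collagen, had signals of 973 and 737 in FAN +/+ cells and 330 and 284 in FAN -/- cells. Both FAN -/- values were below both FAN +/+ values, 2.95-fold without and 2.60-fold with TNF (limma -1.47 ± 0.12, adjusted p = 0.012). Of 6 cartilage markers listed, 5 were below the floor on all arrays. Sox9, the chondrogenic transcription factor, lay above it on all 4. Its signals were 168, 107, 132 and 101 in the order FAN +/+ untreated and TNF, FAN -/- untreated and TNF. The summed cartilage marker signal ranged from 294 to 362 in FAN +/+ and from 284 to 314 in FAN -/- cells.

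Col5a3, a minor type V chain, had signals of 1230 and 4197 in FAN +/+ cells against 445 and 1697 in FAN -/- cells. It was 2.76-fold lower without and 2.47-fold lower with TNF (limma -1.39 ± 0.10, adjusted p = 0.0097), and with both of its probe sets averaged, 1 of them below the floor on all arrays, the differences were -0.82 and -0.80 log2. The TNF-treated FAN -/- value was still above the untreated FAN +/+ value. The chains of types I and III, which build the bulk of fibroblast fibrils, were not called for genotype. Col1a2 had signals of 20190, 18670, 19530 and 18020 in the order FAN +/+ untreated and TNF, FAN -/- untreated and TNF. Col1a1 had 18560, 16190, 16370 and 12830 in that order, with a limma genotype difference of -0.26 ± 0.07 (adjusted p = 0.12). Col3a1 had 16940, 15830, 14830 and 9366, with -0.47 ± 0.15 (adjusted p = 0.15). With arrays centred on their medians, Col1a1 (adjusted p = 0.049) and Col3a1 (adjusted p = 0.023) were also called lower. Over all genes, the genotype calls then went from 347 higher and 434 lower to 532 and 980. Col11a1 was higher in FAN -/- cells by 0.48 ± 0.09 and narrowly missed the call (adjusted p = 0.057), but was called under 7 of 11 alternatives, among them its second probe set (0.81, adjusted p = 0.038) and quantile normalization (adjusted p = 0.041). A second Col1a1 probe set had the opposite sign (limma 0.07, adjusted p = 0.59), so no direction is given for Col1a1.

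These signals were among the brightest on the arrays. Col1a2 lay 0.04 to 0.24 log2 below the maximum of its array and Col1a1 0.16 to 0.73 below. The second, dimmer probe set of Col3a1 had signals of 3601 and 2958 in FAN +/+ cells and 2741 and 940 in FAN -/- cells. It was 3.15-fold lower in FAN -/- cells with TNF, where the bright probe set was 1.69-fold lower. Whether nearness to the maximum limits the differences of the bright probe sets was not tested.

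Type IV genes went the other way. By their probe sets of highest mean, all 4 above the floor were higher in FAN -/- cells in both treatments. The medians were 0.32 log2 without and 0.52 with TNF, and none reached 2-fold. The second Col4a5 probe set, above the floor on all arrays, was lower in untreated FAN -/- cells (-0.16 log2) and higher with TNF (0.25). The second Col4a1 probe set was higher in both treatments (0.62 and 0.63). Col4a1 and Col4a2, which encode the ubiquitous basement membrane trimer, rose with loss of FAN. Col4a1 had signals of 3597 and 3006 in FAN +/+ cells and 6210 and 5243 in FAN -/- cells, 1.73-fold and 1.74-fold higher (limma 0.80 ± 0.08, adjusted p = 0.016). Col4a2 had 4186 and 3308 in FAN +/+ cells and 6064 and 5168 in FAN -/- cells, 1.45-fold and 1.56-fold higher (limma 0.59 ± 0.08, adjusted p = 0.029). For each gene the lower FAN -/- value exceeded the higher FAN +/+ value. The 2 genes are neighbours on chromosome 8, transcribed away from each other, and their annotated starts in RefSeq (GRCm38.p6) overlap by 22 bases. Without an intensity trend in limma, Col4a2 was not called (adjusted p = 0.053). Col4a5 (limma 0.26, adjusted p = 0.24) and Col4a6 (0.15, adjusted p = 0.44), neighbours on the X chromosome that are also transcribed away from each other, did not pass.

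The remaining collagens were mixed, and 5 of the 13 above the floor were called. Col7a1, the anchoring fibril collagen that fastens epidermal basement membrane to dermis, had the largest genotype difference of the collagens as read from their probe sets of highest mean. Its signals were 225 and 292 in FAN +/+ cells and 974 and 1721 in FAN -/- cells. It was 4.34-fold higher without and 5.90-fold higher with TNF (limma 2.34 ± 0.15, adjusted p = 0.0085). Col12a1, a fibril-associated collagen with interrupted helices (FACIT), had signals of 4609 and 3493 against 6869 and 5393 in FAN -/- cells and rose by 0.60 ± 0.08 (adjusted p = 0.025). Col8a1, a network-forming chain of vessel wall and cornea, had 2993 and 1900 against 4271 and 3029 and rose by 0.59 ± 0.09 (adjusted p = 0.036). In these probe sets both FAN -/- values lay above both FAN +/+ values, for Col8a1 only barely (3029 against 2993). In the second probe sets the TNF-treated FAN -/- value lay below the untreated FAN +/+ value. It was 3355 against 4005 for Col12a1 and 2760 against 2882 for Col8a1. Both calls were lost with the second probe set of the gene (adjusted p = 0.13 for Col12a1 and 0.081 for Col8a1), Col12a1 also with all probe sets averaged (adjusted p = 0.13) and Col8a1 also without the trend (adjusted p = 0.057).

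Col18a1, a basement membrane proteoglycan whose C-terminal fragment is endostatin, had signals of 1400 and 2483 in FAN +/+ cells and 539 and 886 in FAN -/- cells. Both FAN -/- values lay below both FAN +/+ values, 2.60-fold apart without TNF and -1.49 log2 with it (limma -1.43 ± 0.10, adjusted p = 0.0096). Col10a1, the collagen of hypertrophic cartilage, had 736 and 485 against 444 and 227. It was 1.66-fold lower without and 2.14-fold lower with TNF (limma -0.91 ± 0.14, adjusted p = 0.038). The remaining 8 genes of the group above the floor did not pass. Among them Col19a1, a FACIT, had signals of 56.1 and 65.7 in FAN +/+ cells, below the floor, and 145 and 105 in FAN -/- cells, at least 1.88-fold and 1.36-fold higher (limma 0.68 ± 0.14, adjusted p = 0.070).

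Counted together, 6 of 30 collagens were at least 2-fold lower in untreated FAN -/- cells, where 2.96% of all 11924 genes were, and 1 was at least 2-fold higher, where 1.48% were. With TNF the counts were 7 lower and 1 higher of 30, against 2.70% and 1.58% of 11971 genes. The 6 lower without TNF were Col2a1, Col5a3, Col6a1, Col6a2, Col6a3 and Col18a1, and with TNF Col10a1 joined them; the gene higher both times was Col7a1. In limma, 7 collagens fell and 5 rose with loss of FAN, where 3.67% of all genes fell and 2.94% rose. The untreated and the TNF-treated differences come from separate arrays. Their sign was the same for 25 of 30 collagens (83.3%) and for 71.0% of all 11671 genes above the floor in both. Genotype and cell preparation cannot be told apart in either difference, so a like sign is no replicate check of genotype. The 5 collagens of unlike sign were Col5a1, Col9a1, Col14a1, Col16a1 and Col25a1.

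**Figure D3:**
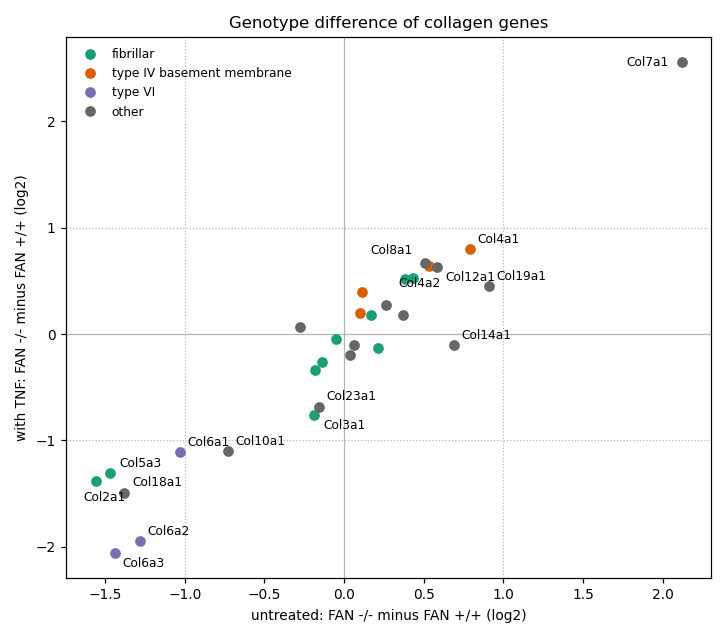
Genotype difference (FAN -/- minus FAN +/+, log2) of the 30 collagen genes above the floor, in untreated cells (horizontal axis) and with TNF (vertical axis), 1 array against 1 on each axis; colours give the class and dotted lines a 2-fold difference. Col7a1 stands at 2.12 and 2.56, the 3 type VI genes lie between -1.03 and -2.06 on either axis, and the type IV genes lie between 0.10 and 0.80.

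These calls need the shared additive model. With genotype as the only term, limma passed 0 of 30 collagens in either direction, where 4 higher and 6 lower of all 11817 genes passed. At an unadjusted p under 0.05, 7 collagens were higher and 5 lower, against 794 and 871 of all genes. With genes at the floor on every array kept in the fit, 0 of 36 collagens and 0 of all 18193 genes passed. Unadjusted, 9 collagens were then higher and 7 lower, against 1117 and 1063 of all genes. General fibroblast genes moved with genotype too: Pdgfra, a mesenchymal growth factor receptor, had signals of 1901 and 2751 in FAN +/+ cells and 704 and 789 in FAN -/- cells (limma -1.62 ± 0.13, adjusted p = 0.011), and S100a4 fell by 0.54 log2 (adjusted p = 0.028), while Vim, Pdgfrb and Thy1 did not pass. The summed signal of the 6 fibroblast markers was 36220 and 34380 in FAN +/+ cells and 31180 and 30730 in FAN -/- cells. Its part in the collagen differences was not tested, and in bulk RNA fewer cells of a type and less RNA per cell cannot be told apart.

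The response to TNF was narrower. In limma, 2 of 30 collagens rose and 2 fell, where 1.57% and 1.14% of all genes did. With arrays centred on their medians the split was 2 and 5, adding Col12a1 (adjusted p = 0.042), Col8a1 (0.012) and Col10a1 (0.013) to those that fell; over all genes the calls then went from 186 higher and 135 lower to 405 and 518. In FAN +/+ cells, of 28 collagens 1 was higher and 2 were lower by at least 2-fold, against 2.26% and 1.98% of 11885 genes. In FAN -/- cells the counts were 1 and 2 of 30, against 1.38% and 1.10% of 11927 genes. The 3 genes were the same in both genotypes: Col5a3 higher, Col8a2 and Col11a1 lower. Among the fibroblast markers Thy1 also fell with TNF, from 801 to 494 in FAN +/+ and from 1234 to 642 in FAN -/- cells (limma -0.82, adjusted p = 0.050, just under the threshold), while all 4 smooth muscle markers lay above the floor and Cnn1 (-1.03, adjusted p = 0.020) and Myh11 (-0.76, adjusted p = 0.043) fell with TNF. The summed smooth muscle signal was 26740 and 25370 in FAN +/+ cells and 31690 and 30080 in FAN -/- cells. The part of these markers in the collagen responses was not tested.

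Col5a3 was 3.41-fold higher with TNF in FAN +/+ cells (1230 to 4197) and 3.81-fold higher in FAN -/- cells (445 to 1697). It rose by 1.85 ± 0.10 log2 (adjusted p = 0.0098), with nearly equal responses from starting levels that differed 2.76-fold. Its other probe set stayed below the floor on all arrays. Col8a2, the partner chain of Col8a1, had signals of 340 and 84.3 in untreated and TNF-treated FAN +/+ cells and 439 and 95.7 in FAN -/- cells. It was 4.03-fold and 4.58-fold lower with TNF and fell by 2.10 ± 0.12 log2 (adjusted p = 0.010). Both TNF-treated values lay just above the floor, and with the floor at the 70th percentile of all values, which then bounds them, the differences were -0.57 and -0.93 log2.

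Col11a1, a minor fibrillar chain that nucleates fibrils, had signals of 2377 and 998 in FAN +/+ cells and 3202 and 1444 in FAN -/- cells. It was 2.38-fold and 2.22-fold lower with TNF and had a limma TNF effect of -1.20 ± 0.09 log2 (adjusted p = 0.016). Its second probe set was 1.97-fold and 2.14-fold lower and narrowly missed the call (adjusted p = 0.051). Col18a1 went from 1400 to 2483 in FAN +/+ cells and from 539 to 886 in FAN -/- cells. It was 1.77-fold and 1.64-fold higher and rose by 0.77 ± 0.10 log2 (adjusted p = 0.039). This call was lost with the floor at the 30th percentile (adjusted p = 0.055) and with the second probe set (adjusted p = 0.13). Every TNF call of a collagen was lost in limma with TNF as the only term (0 higher and 0 lower of 30, 0 and 2 at an unadjusted p under 0.05) and with genes at the floor kept in (0 and 0 of 36, 3 and 7 unadjusted). Over all genes 0 passed in either fit. Unadjusted, 450 higher and 434 lower of 11817 did in the first, and 863 and 823 of 18193 in the second.

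**Figure D4:**
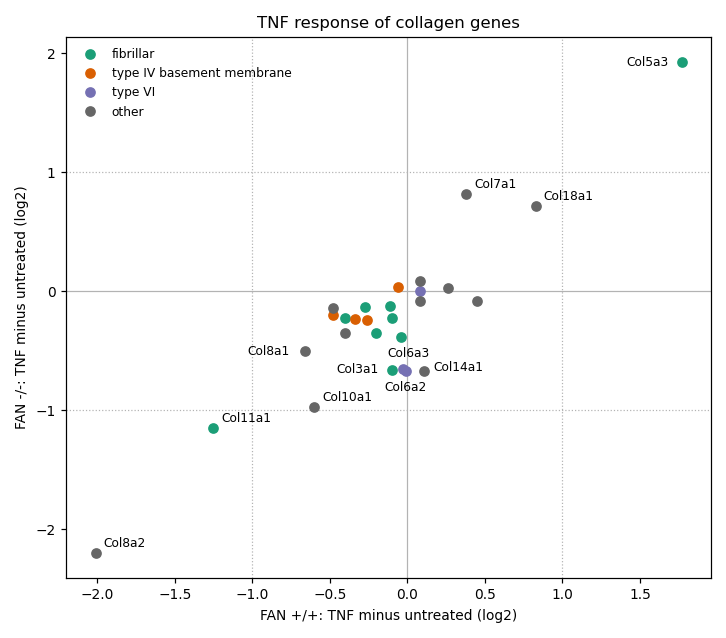
TNF response (TNF minus untreated, log2) of the 28 collagen genes above the floor in both genotypes, in FAN +/+ cells (horizontal axis) and FAN -/- cells (vertical axis), 1 array against 1 on each axis; colours give the class and dotted lines a 2-fold difference. Col5a3 stands at 1.77 and 1.93, Col8a2 at -2.01 and -2.20, and most others lie within 0.5 of 0 in FAN +/+ cells.

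Over all members above the floor the median was -0.10 log2 in FAN +/+ cells (28 genes, 19 negative) and -0.22 in FAN -/- cells (30 genes, 23 negative), where the median of all genes was -0.04 and 0.01. By class, the medians in FAN +/+ and FAN -/- cells were -0.11 and -0.22 for fibrillar, -0.30 and -0.21 for type IV, -0.01 and -0.65 for type VI and 0.08 and -0.14 for the other genes. Col8a1 (limma -0.58, adjusted p = 0.058) and Col10a1 (-0.78, adjusted p = 0.077) were lower in both genotypes without passing; Col8a1 passed under 6 of 11 alternatives (adjusted p from 0.012 to 0.046 there) and Col10a1 under 2 of 10. Col7a1 was 1.30-fold higher with TNF in FAN +/+ and 1.77-fold higher in FAN -/- cells (limma 0.60, adjusted p = 0.14). Among the collagens whose arrays are not given one by one, the response ranged from -0.48 (Col4a5 and Col16a1) to 0.45 (Col23a1) in FAN +/+ cells and from -0.67 (Col14a1) to 0.09 (Col9a3) in FAN -/- cells. Col11a2 and Col19a1 lay below the floor on both FAN +/+ arrays and have no response there.

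The 2 responses could be set against each other only as values, since no degree of freedom is left to test their difference. No collagen differed 2-fold between the responses, where the response of 0.794% of 12224 genes was that much higher in FAN -/- cells and that of 0.818% that much lower. The widest gaps were those of Col14a1 (-0.78), Col6a2 (-0.67), Col6a3 (-0.63) and Col3a1 (-0.57), all lower with TNF in FAN -/- cells and within 0.11 of 0 in FAN +/+ cells. Col14a1 lay near the floor, a signal of 77.0, on all arrays but the untreated FAN -/- array, where its signal was 124. Its untreated FAN +/+ value was below the floor, so its FAN +/+ response is a bound. The other Col14a1 probe sets were below the floor on every array. The second probe set of Col3a1 was 1.22-fold lower with TNF in FAN +/+ and 2.92-fold lower in FAN -/- cells. Col6a1, in contrast to the other type VI chains, was 1.06-fold higher in FAN +/+ cells and nearly level in FAN -/- cells (4604 to 4594).

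Genes that serve collagen were read from lists of the pathway, beside which the shares over all genes are 2.94% higher and 3.67% lower for genotype and 1.57% higher and 1.14% lower for TNF. Among folding and hydroxylation genes, 1 of 20 tested fell with loss of FAN and none rose, and none passed for TNF in limma. At an unadjusted p under 0.05, 0 were higher and 2 lower with TNF, against 969 and 1250 of all 11817 genes. The gene that fell was Crtap, a component of the prolyl 3-hydroxylation complex (limma -0.51 ± 0.08, adjusted p = 0.041). The medians of this list were -0.03 log2 between genotypes without TNF and -0.19 with TNF. Of 8 propeptide cleavage and crosslinking genes, Tll1, a tolloid-like procollagen C-proteinase, rose with loss of FAN (1.07 ± 0.19, adjusted p = 0.050, just under the threshold), with signals of 106 and 205 against 279 and 344. Pcolce2, an enhancer of procollagen C-proteinase, rose with TNF by 1.34 ± 0.10 (adjusted p = 0.016), from 87.2 to 220 in FAN +/+ and from 96.1 to 243 in FAN -/- cells.

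Of 15 fibril-associated genes tested, 5 fell with loss of FAN and none rose, and 4 fell with TNF. Lum, a small leucine-rich proteoglycan that limits fibril diameter, had signals of 6876 and 10980 in FAN +/+ cells and 438 and 175 in FAN -/- cells (limma -4.97 ± 0.48, adjusted p = 0.016). Comp, a pentameric collagen-binding protein, had 1950 and 743 against 142 and 80.7 (-3.49 ± 0.18, adjusted p = 0.0070). The other proteoglycans of the set that fell were Dcn (-1.64, adjusted p = 0.035), Fmod (-1.64, adjusted p = 0.020) and Prelp (-1.46, adjusted p = 0.025). With TNF, Omd fell by 2.62, Aspn by 2.17, Ogn by 1.78 and Postn by 0.56 log2, the last just under the threshold (adjusted p = 0.050).

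Of 9 degradation genes, 3 rose with TNF: the collagenase gene Mmp13 (adjusted p = 0.028), the gelatinase gene Mmp9 (1.66 ± 0.21, adjusted p = 0.037) and the inhibitor gene Timp1 (adjusted p = 0.025), the last from 6033 to 13470 in FAN +/+ and from 5234 to 9423 in FAN -/- cells. Mmp13 also fell with loss of FAN (-2.99 ± 0.31, adjusted p = 0.019), with signals of 403 and 4275 in FAN +/+ cells and 26.4, below the floor, and 353 in FAN -/- cells. Ctsk, a lysosomal collagen-degrading protease, rose with loss of FAN (1.03 ± 0.12, adjusted p = 0.023). Of 11 basement membrane partners, none rose and 2 fell with loss of FAN, the laminin chain gene Lama4 (-1.13 ± 0.10, adjusted p = 0.014) and Nid2, which links laminin to type IV collagen (-1.83 ± 0.30, adjusted p = 0.044). The type IV genes called had gone up. Of 7 collagen receptor genes, none passed for genotype in limma. At an unadjusted p under 0.05, 2 were higher and 0 lower, against 1325 and 1574 of all 11817 genes. Itga1, an integrin chain that binds type IV collagen, fell with TNF (-1.12 ± 0.15, adjusted p = 0.047).

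Upstream windows of 250 bases were matched for 29 of the 36 collagen genes, 32 windows in all, and searched on both strands; none of the motifs contains another. The GC box, GGGCGG, was present in 19 of the 32 collagen windows (18 genes), and in 32.7% of all 32851 windows. CCAAT was present in 12 of the 32 collagen windows and in 33.8% of all windows, TATAAA in 5 and 12.4%, TGANTCA, the AP-1 site, in 1 and 6.7%, and the NF-kB consensus in 2 (Col9a1 and Col9a2) and 5.0%. In the windows printed above, Col6a1 has a TGANTCA match and no GGGCGG, Col6a2 a GGGCGG match, and Col6a3 none of the 5 motifs, so the type VI genes share none of them here. Col7a1 and Col5a3 each have CCAAT and GGGCGG. These matches describe letters in the windows.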

How the data were processed

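Total RNA of 4 samples was measured on Affymetrix Mouse Genome arrays. The authors' deposited values are on a log2 scale, as judged from their range; MAS5 is the tool that the submitters' processing notes name, and the normalization, summary method and any filter are not stated there. Differences could therefore be compressed by that processing. Of 45101 probe sets, 34945 name 1 gene in the platform annotation, 932 several and 9160 none, beside 64 controls. The Entrez identifier matched RefSeq (GRCm38.p6) for 34741, and 0 symbols changed. Each gene was read from its probe set of highest mean, and values were raised to the 50th percentile; 12224 genes exceeded it somewhere. limma 3.58.1 (R 4.3.3; lmFit, eBayes with trend) was fitted to the 11817 genes that exceeded the floor on 2 or more arrays, as genotype plus TNF with 1 residual degree of freedom and 3.52 prior degrees of freedom, and adjusted by Benjamini-Hochberg over all of them. It was tested on simulated data with independent errors drawn from its own fitted prior and additive effects. Such data meet the assumptions of the model, so they cannot show how it does with 1 array per condition. P-values and SEs rest on the departure of these 4 arrays from additive effects, moderated over genes, and not on replicates. An effect that differs between the levels of the other factor enters as error. Precision is limited by the number of arrays. Alternatives set the floor at the 30th or the 70th percentile, or dropped it for log2(signal + 16). Others were median centring, quantile normalization, other probe sets, stricter and absent filters, 1 term in the model, and no trend. Named collagens were those at least 2-fold apart in a comparison or called, and 8 set by name; genes of the lists were named by size of effect, up to 4 a list, and the called genes beyond that after their values were seen. The members and lists were chosen with earlier results of these data known. Some list members, among them Fkbp10, Adamts2, Adamts14, Loxl2, Itga11 and Fbn1, are not analysed here.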

Additional observations from a re-analysis of the deposited data

How the results depend on the processing

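No paired analysis was possible because the labels give no replicate numbers and each condition is 1 array. No called difference of a named collagen changed sign under any alternative; the uncalled genotype differences of Col1a1 (0.05 and 0.09 with the second probe set) and Col1a2 (0.28 and 0.11 with probe sets averaged) did. Leaving out an array was not run, since 3 arrays leave 0 residual degrees of freedom. With the second probe set, 0 collagens were at least 2-fold higher with TNF in either genotype, 0 lower in FAN +/+ cells, 2 lower in untreated and 3 in TNF-treated FAN -/- cells against FAN +/+, 0 higher with TNF between genotypes, and 1 had a 2-fold lower response in FAN -/- cells. A second probe set above the floor exists for 15 collagens between genotypes and 14 for TNF. There limma called 2 higher and 2 lower by genotype, where 93 and 91 of all 5209 genes were. By TNF it called 0 and 0 (1 and 8 unadjusted), where 19 and 9 of all genes were called (436 and 498 unadjusted). Its fibrillar medians were -0.28 and -0.56 for TNF and 0.19 for untreated genotype, those of the other class -0.33, -0.55 and 0.28 (genotype with TNF), and Col6a2 alone stood for type VI at -1.47. With the 70th percentile floor 1 collagen was lower with TNF in each genotype. Limma then called 4 of 22 lower with TNF, where 225 of all 8189 genes were. Medians of the other class there were -0.48 and -0.35 for TNF and 0.35 for genotype with TNF. That of type IV was 0.53 for untreated genotype. With the 30th percentile floor or none, 2 were higher in untreated FAN -/- cells. With the former, limma called 1 higher with TNF, where 139 of all 14836 genes were. Its untreated genotype medians were 0.63 (type IV) and 0.07 (other). That of the other class was 0.06 over genes above the floor on all arrays, and its FAN +/+ TNF median -0.48 with probe sets averaged. Limma called 5 lower with TNF after centring, where 518 of all 11799 genes were. Without the trend it called 3 higher by genotype, where 306 of all 11817 genes were. With 1 term or no filter it called 0 in each direction by genotype and by TNF (unadjusted counts are given with those results). The cause of these shifts was not tested, beyond the fewer genes that other probe sets and floors leave. The other settings kept counts within 1.5 times and class medians within 0.16 log2.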

Other observations

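Probe sets of collagen genes other than the brightest add values of their own. A second Col19a1 probe set had signals of 33.8 and 41.4 in FAN +/+ cells and 157 and 94.4 in FAN -/- cells, so the genotype difference seen at the first probe set appeared there too, with both FAN +/+ values below the floor. Without the floor, its untreated difference was 4.64-fold, against 4.34-fold for Col7a1. Of 15 collagens with a second probe set above the floor, its genotype difference had the sign of the first for 12 without TNF and 14 with TNF, and of 14 its TNF response had the same sign for 13 in FAN +/+ and 14 in FAN -/- cells. Both collagens at least 2-fold apart between genotypes by the first of 2 or more such probe sets (Col6a2 and Col18a1) were so by the second, in each treatment. Another Col1a2 probe set, far dimmer than the others, had signals of 285 and 232 in FAN +/+ cells and 463 and 314 in FAN -/- cells, 1.63-fold and 1.35-fold higher, where the brightest Col1a2 probe set was 1.03-fold and 1.04-fold lower.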
